A study of Mus musculus with 6 samples.

Results

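Atp1b1, Atp1b2, Atp1b3, Kcnv2 and Slc24a1 are 5 genes of the sodium pump and of the dark current of photoreceptors, and they were followed through every cell type of the mouse retina. They were chosen by name, as 5 of the 52636 genes in the count table, with earlier results of these data known. Single-cell RNA sequencing was run on 6 retinas, 3 labelled Dram2 wt/wt and 3 labelled Dram2 ko/ko. The mice were male, of the strain C57BL/6J and 12 months old, and the ko allele is a constitutive CRISPR/Cas9 deletion that removes exon 4 of Dram2 in all cells. The table holds 46375 cells, of which 45746 carry 1 of 5 cell types given by the authors: 42359 photoreceptors, 2083 interneurons, 942 glia, 246 mesenchymal cells and 116 cells of the retinal pigment epithelium (RPE).

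The sodium pump, or Na,K-ATPase, spends ATP to move sodium out of a cell and potassium into it. It consists of a catalytic alpha subunit and a glycosylated beta subunit that carries the alpha subunit to the plasma membrane. Atp1b1, Atp1b2 and Atp1b3 encode alternative beta subunits, and Atp1b2 is also known as AMOG, the adhesion molecule on glia. In darkness sodium and calcium enter the outer segment of a photoreceptor through light-sensitive cation channels, and the pump of the inner segment removes the sodium. Potassium leaves through voltage-gated channels of the inner segment. Kcnv2 encodes a silent subunit of these channels, which conducts nothing on its own and alters the channels it joins. Slc24a1 encodes the exchanger of the rod outer segment, which brings sodium in and takes calcium and potassium out.

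Atp1b1 (ENSMUSG00000026576) lies on the minus strand of GRCm38 at chr1:164437109-164458355. The 3′ end of the gene overlaps that of Nme7 on the plus strand, which ends at base 164437725, and reads there belong to 1 gene or the other only if counting used the strand, which the sources used here do not state. Atp1b2 (ENSMUSG00000041329) lies at chr11:69599736-69605942 and Atp1b3 (ENSMUSG00000032412) at chr9:96332655-96364442, both on the minus strand. Kcnv2 (ENSMUSG00000047298) lies on the plus strand at chr19:27322588-27337179, and Slc24a1 (ENSMUSG00000034452) on the minus strand at chr9:64922861-64951607. No other annotated gene overlaps these 4.

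The sequence before the start site is shown for the 2 genes at opposite ends in photoreceptors: Atp1b1, almost without UMIs there, and Slc24a1, with the highest level. Each line gives the 150 bases that precede the RefSeq start (GRCm38, 5′ to 3′ on the strand of the gene), and capitals mark the letters TATATA.
Atp1b1, chr1:164458356-164458505, minus strand: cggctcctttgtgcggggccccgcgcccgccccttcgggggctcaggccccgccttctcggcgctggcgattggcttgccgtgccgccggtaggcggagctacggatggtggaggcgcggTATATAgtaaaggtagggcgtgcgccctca
Slc24a1, chr9:64951621-64951770, minus strand: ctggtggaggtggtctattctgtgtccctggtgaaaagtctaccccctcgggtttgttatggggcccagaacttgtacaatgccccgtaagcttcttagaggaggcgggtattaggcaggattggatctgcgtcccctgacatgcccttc

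The 250 bases before the start are 70.4% G and C for Atp1b1 and 50.8% for Slc24a1, beside a median of 52.4% over the 32851 RefSeq start windows. The letters TATATA occur in the window of Atp1b1 and in 5.25% of all windows, on either strand. The letters TAATCC, a core read by photoreceptor homeodomain proteins, occur in neither window and in 6.25% of all windows. A match or its absence describes these letters only.

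Depth differed between the cell types. The cells with a type held 3388294 to 6476667 unique molecular identifiers (UMIs) per retina, where 1 UMI stands for 1 captured molecule. Photoreceptors summed to between 2892834 and 4675272 UMIs a retina and interneurons to between 245755 and 1406842. Sums were smaller in glia (145343 to 453224) and mesenchymal cells (77876 to 114066), and RPE held only 17073 to 35968. The marker lists matched the labels in part: the rod and cone lists were highest in photoreceptors, the bipolar list in interneurons, the Müller list in glia and the RPE list in RPE. The amacrine list summed to 1002 CPM in interneurons, where CPM are UMIs scaled to a total of 1000000, and to 1147 in glia. The mesenchymal type was high in microglial and endothelial markers (13081 and 7962 CPM), whereas the 4 fibroblast markers summed to 7 CPM there and 2 of them were at 0.

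The retinas did not stand at equal distance from each other. The 2 retinas of batch 1, replicate 3 of each genotype, held 3.22% and 2.75% mitochondrial UMIs, and the 4 of batch 2 held 0.405% to 0.720%. In photoreceptors the chi-square per degree of freedom between 2 retinas was 1.67 to 3.86 among wt/wt replicates 1 and 2 and ko/ko replicate 2, and 5.76 to 33.2 for every other pair. The ko/ko replicate 1, although of batch 2, was thus apart from the other retinas of its batch. Dram2 itself was counted at 26.3 to 57.8 CPM in photoreceptors of the 6 retinas. UMIs come from the 3′ end of the transcript, outside the deleted exon, so this level does not check the genotype labels.

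Levels were compared between cell types with UMIs summed per retina and type, in CPM. Since each UMI counts a molecule once at its 3′ end, levels of different genes need no scaling by length. Values are means ± SD over the 6 retinas. Differences between types are log2 differences ± SE from edgeR's quasi-likelihood test with the retina as a block and Benjamini-Hochberg adjustment over 6290 genes. Since the types were themselves found by clustering these counts, p values between them are no independent evidence.

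The 5 genes fell into separate patterns. Of the UMIs counted in typed cells, interneurons held 85.3% of the 1397 for Atp1b1, photoreceptors 74.9% of the 19684 for Atp1b2 and glia 63.2% of the 999 for Atp1b3. Photoreceptors held 95.7% of the 3777 for Kcnv2 and 96.9% of the 29479 for Slc24a1. Between photoreceptors and mesenchymal cells all 5 genes passed the test, where 64.2% of the genes tested did so. Between glia and mesenchymal cells 2 of the 5 did, beside 44.8% of all. Low counts were filtered over all types together. Atp1b1, Atp1b3 and Kcnv2 passed that filter through the types where they are high, so nothing is read from these counts.

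**Figure D1:**
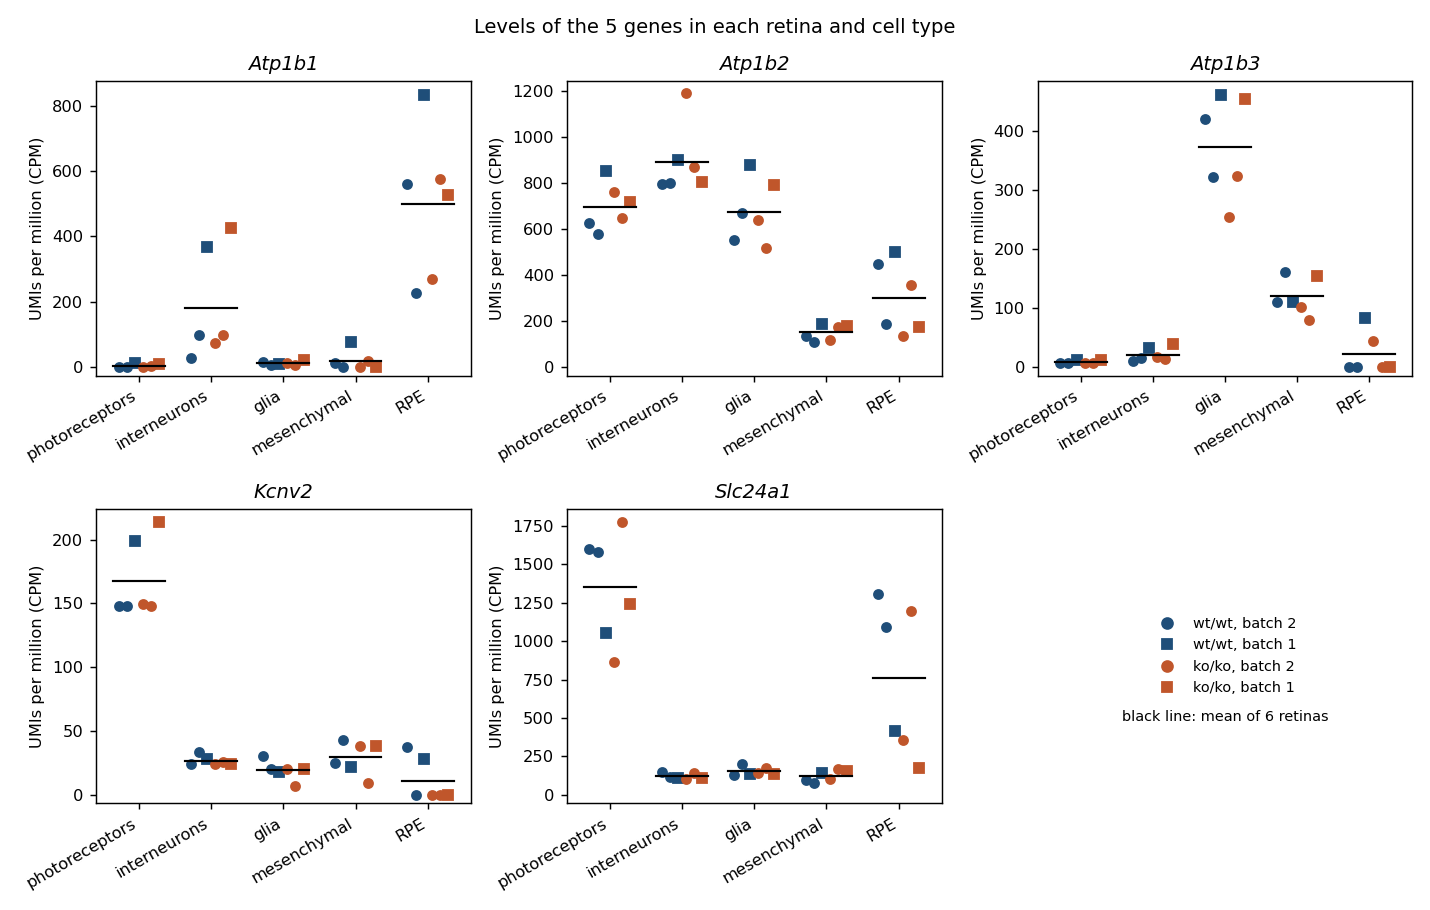
Level of each gene (CPM, vertical axis) in the 5 cell types, with 1 point per retina, colour for genotype, shape for batch and a line at the mean of 6 retinas. Atp1b1 is highest in RPE and interneurons, Atp1b3 in glia, Kcnv2 and Slc24a1 in photoreceptors, and Atp1b2 lies between 516 and 1188 CPM in photoreceptors, interneurons and glia.

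Atp1b1 had its highest level in RPE, at 499 ± 224 CPM. The values of wt/wt replicates 1 to 3 were 561, 226 and 834 CPM and those of ko/ko replicates 1 to 3 were 268, 577 and 527 CPM, from 79 UMIs in all. Interneurons followed at 182 ± 169 CPM, with 28.5, 98.6 and 367 CPM in wt/wt and 73.2, 97.1 and 426 CPM in ko/ko. The 2 batch 1 retinas were thus far above the 4 others in interneurons, whatever the genotype.

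RPE exceeded interneurons in 6 of 6 retinas, by 1.44 ± 0.30 on the log2 scale (edgeR, adjusted p = 6.9e-05; 46.0% of all genes tested passed in this contrast). In contrasts with RPE the median log2 difference over all genes lay 0.83 to 1.03 below 0 for RPE, a shift to be set beside every RPE value. Interneurons exceeded mesenchymal cells in 6 of 6 retinas, by 3.14 ± 0.47 in edgeR. Atp1b1 had too few UMIs to be tested in mesenchymal cells alone. It passed the filter through the types where it is high, so nothing is read from this test. Mesenchymal cells at 17.8 CPM and glia at 12.3 CPM rested on 10 and 21 UMIs and did not differ beyond their spread (edgeR, adjusted p = 0.38). Nor did glia and photoreceptors pass (log2 difference 1.11, edgeR, adjusted p = 0.0636, beside 69.0% of genes that passed in this contrast).

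Photoreceptors held almost no Atp1b1. Their values were 0, 0.304 and 12.9 CPM in wt/wt and 0.691, 1.95 and 8.34 CPM in ko/ko, from 95 UMIs in 42359 cells. The count of 0 in wt/wt replicate 1 allows a level of up to 0.971 CPM. Again both batch 1 retinas stood above the other 4. Those retinas also held the larger shares of amacrine-rich interneurons described further on, and the part of this difference in the result was not tested.

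Atp1b2 was high in 3 cell types. Interneurons had 892 ± 151 CPM, with 795, 798 and 898 in wt/wt and 1188, 867 and 803 in ko/ko. Photoreceptors had 696 ± 100.1 CPM, with 627, 576 and 852 in wt/wt and 760, 648 and 715 in ko/ko, in CPM. Glia had 674 ± 139 CPM, with 554, 669 and 878 in wt/wt and 637, 516 and 792 in ko/ko. The ranges of the 3 types overlapped.

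Interneurons were above photoreceptors in CPM in 6 of 6 retinas, but with edgeR's scaling the log2 difference was 0.06 ± 0.11 (adjusted p = 0.655; 66.0% of genes passed), and its sign turned to photoreceptors under 4 alternatives and without ko/ko replicate 1. Photoreceptors and glia did not differ beyond their spread either (0.18 ± 0.12, edgeR, adjusted p = 0.179). Glia exceeded RPE, at 300.4 ± 155 CPM, by 1.32 ± 0.23 (edgeR, adjusted p = 2.4e-06; 38.6% of genes passed). RPE exceeded mesenchymal cells, at 149.9 ± 35.3 CPM, by 0.85 ± 0.30 (edgeR, adjusted p = 0.019; 38.9% of genes passed). This last call was lost without wt/wt replicate 3, where the adjusted test no longer passed at a difference of 0.70.

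Atp1b3 was a gene of glia. The level there was 372 ± 84.5 CPM, with 420.1, 321 and 461 in wt/wt and 255, 323 and 454 in ko/ko. Mesenchymal cells had 119 ± 31.5 CPM, below glia in 6 of 6 retinas, by 1.64 ± 0.20 on the log2 scale (edgeR, adjusted p = 1.1e-10). The lowest glial value, 255 CPM, was above the highest mesenchymal value, 160.1 CPM.

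Elsewhere Atp1b3 was low. RPE had 4 UMIs in all, a mean of 21.4 CPM, which was below mesenchymal cells by 2.40 ± 0.62 in edgeR. Nothing is read from that test, since Atp1b3 passed the filter through glia and mesenchymal cells, where it is high. The RPE level did not differ beyond the spread from the 20.7 ± 11.8 CPM of interneurons (adjusted p = 0.959, edgeR). Interneurons exceeded the 8.42 ± 2.75 CPM of photoreceptors by 1.17 ± 0.21 (edgeR, adjusted p = 1.5e-06). In photoreceptors both batch 1 retinas, at 11.2 and 12.6 CPM, lay above the 6.07 to 6.97 CPM of batch 2, and the genotypes overlapped.

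By the mean of 6 retinas, the leading pair of beta subunits was Atp1b2 with Atp1b3 in 3 cell types and Atp1b2 with Atp1b1 in 2, taken as shares of the UMIs of the 3 genes together. In photoreceptors Atp1b2 made up 98.3 ± 0.87% and Atp1b3 came next with 1.18 ± 0.29%. The second place turned in wt/wt replicate 3, with 46 UMIs of Atp1b1 and 40 of Atp1b3, and rests on few UMIs, 20 to 59 of Atp1b3 in each retina. In interneurons Atp1b2 made up 82.9 ± 13.3% and Atp1b1 15.3 ± 12.5%. Glia paired Atp1b2, at 63.7 ± 5.04%, with Atp1b3, at 35.2 ± 4.94%. The same pair led in mesenchymal cells, with 52.3 ± 7.86% and 42.4 ± 11.8% from 154 UMIs, though in wt/wt replicate 2 Atp1b3, with 15 UMIs, was above Atp1b2, with 10. RPE alone was led by Atp1b1, with 61.0 ± 7.4%, and Atp1b2 came second with 36.4 ± 8.02%, from 132 UMIs. The spread was largest in interneurons, where Atp1b2 ranged from 63.3% to 95.4% between retinas. The rod list summed to 8789 CPM in mesenchymal cells, 9697 CPM in RPE and 9963 CPM in glia, beside 77141 CPM in photoreceptors. The part of free RNA from rods in the shares of these types, and in which subunit leads, was not tested.

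**Figure D2:**
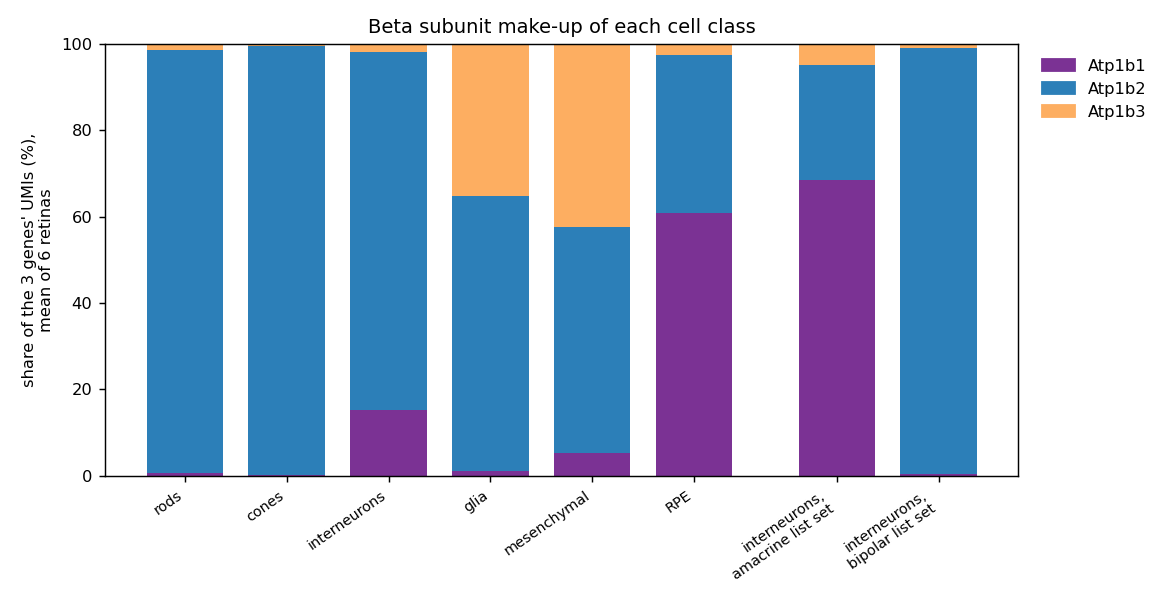
Share of Atp1b1, Atp1b2 and Atp1b3 in the UMIs of the 3 genes together (%, vertical axis), as the mean of 6 retinas, in rods, cones, the 4 other cell types and 2 sets of interneuron clusters. Atp1b2 fills the bars of rods (98.1%) and cones (99.3%), Atp1b3 takes a large part in glia and mesenchymal cells, and Atp1b1 leads in RPE and in the amacrine list set.

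The interneuron type mixed cells with opposite beta subunits. The 2083 cells were clustered without the 5 genes into 13 clusters. One of 68 cells, with 9 cone markers among its 10 leading genes, was left out, and the other 12 were divided by whether they held more UMIs of the amacrine list or of the bipolar list. This division was made after the data were seen and is given as a description. The 4 clusters richer in the amacrine list held 394 cells and the 8 richer in the bipolar list held 1621.

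In the amacrine-list clusters Atp1b1 stood at 1025 ± 518 CPM. Its values were 405, 829 and 972 in wt/wt and 1966, 871 and 1107 in ko/ko, in CPM. In the bipolar-list clusters it stood at 4.34 ± 5.71 CPM and did not exceed 14.4 CPM in any retina. The UMIs of Atp1b1 numbered 1170 in the former and 19 in the latter. The ranges of the sets did not overlap. How many of all genes also separate these sets was not counted, so the separation is not read as particular to the beta subunits.

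Atp1b2 ran the other way. It had 347 ± 101 CPM in the amacrine-list clusters, from 218 to 465 CPM, and 989 ± 159 CPM in the bipolar-list clusters, from 826 to 1206 CPM. Atp1b3 followed Atp1b1 at a lower level, with 69.7 ± 29.3 against 9.84 ± 3.8 CPM, higher in the amacrine-list clusters in 6 of 6 retinas. Of the beta UMIs, Atp1b1 made up 68.5 ± 9.42% in the amacrine-list clusters, and Atp1b2 made up 98.6 ± 0.54% in the bipolar-list clusters. The interneuron pair of Atp1b2 and Atp1b1 was thus a mean over sets with different leading subunits.

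**Figure D3:**
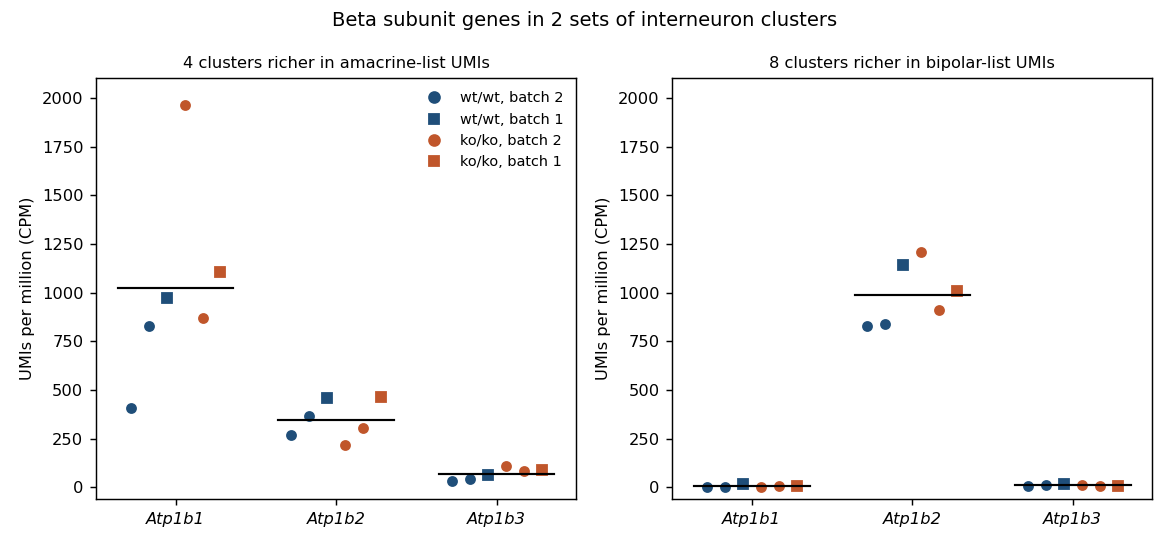
Level of the 3 beta subunit genes (CPM, vertical axis) in the interneuron clusters richer in amacrine-list UMIs (left) and in bipolar-list UMIs (right), with 1 point per retina and a line at the mean. Atp1b1 lies between 405 and 1966 CPM on the left and at or below 14.4 CPM on the right, and Atp1b2 is higher on the right.

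Single clusters are given as UMIs pooled over retinas. Of the 394 amacrine-list cells, 192 came from wt/wt replicate 3 and 147 from ko/ko replicate 3, and the clusters of 44 and 20 cells were found in 3 of 6 retinas. Among the amacrine-list clusters, one led by Tfap2b, Stac2 and Calb1 (167 cells) had 1412 CPM of Atp1b1. The one led by Cxcl14, Gad1 and C1ql2 (44 cells), which alone met the marker rule and can be called amacrine-like, had 939 CPM. One led by Nhlh2, Ier5 and Tfap2c (163 cells) had 733 CPM, and one led by Crabp1, Ppp1r17 and Ebf1 (20 cells) had 429 CPM, the same as its level of Atp1b2.

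Among the bipolar-list clusters Atp1b1 was at most 14.3 CPM and Atp1b2 varied between them. It was lowest, at 553 CPM (exact Poisson 95% interval 478 to 637, counting error only), in the cluster led by Prkca, Sebox and Car8, genes known from rod bipolar cells. The other 7 had 953 to 1268 CPM. No cluster met the rule for a bipolar-like name.

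The share of amacrine-list clusters differed between the batches. In batch 1 they made up 31.5% of the interneurons of the wt/wt retina and 27.4% of those of the ko/ko retina, and 1.88% to 7.47% in the 4 retinas of batch 2. The level of Atp1b1 over all interneurons was highest in the same 2 retinas. Within the amacrine-list clusters the batch 1 values were 972 and 1107 CPM. In batch 2, wt/wt replicates 1 and 2 had 405 and 829 CPM and ko/ko replicate 2 had 871 CPM, all lower. Only ko/ko replicate 1, at 1966 CPM from 3 cells, lay above both.

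Kcnv2 was a photoreceptor gene, at 168 ± 30.3 CPM. Its values were 148.0, 147.9 and 199 CPM in wt/wt and 149, 147.7 and 213 CPM in ko/ko. The 4 retinas of batch 2 lay within 2 CPM of each other, and both batch 1 retinas lay above them. Photoreceptors exceeded mesenchymal cells, the next type at 29.2 CPM, in 6 of 6 retinas, by 2.72 ± 0.27 on the log2 scale in edgeR. Kcnv2 passed the filter over all types through photoreceptors, where it is high, so nothing is read from this test. Interneurons followed at 26.6 CPM, glia at 19.3 CPM and RPE at 10.9 CPM from 2 UMIs. The neighbours among these 4 did not differ beyond their spread (edgeR, adjusted p = 0.546, 0.403 and 0.601, with 59.3% of all genes past the test between interneurons and glia).

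Slc24a1 had the highest level of the 5 genes in photoreceptors, 1352 ± 356 CPM. It was 1597, 1582 and 1050.3 CPM in wt/wt and 865, 1777 and 1239 CPM in ko/ko. RPE came next with 758 ± 495 CPM, and photoreceptors exceeded it by 1.19 ± 0.18 (edgeR, adjusted p = 8.0e-08; 51.3% of genes passed). RPE exceeded glia, at 151 ± 28.9 CPM, by 2.11 ± 0.23 (edgeR, adjusted p = 6.9e-12). Glia, mesenchymal cells at 123.2 CPM and interneurons at 120.2 CPM did not differ from their neighbours beyond the spread (edgeR, adjusted p = 0.379 and 0.603).

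The RPE values of Slc24a1 rested on 117 UMIs and varied widely, with 1310, 1090 and 417 CPM in wt/wt and 358, 1198 and 176 CPM in ko/ko. The retinas highest in RPE, wt/wt replicates 1 and 2 and ko/ko replicate 2, were also the highest in photoreceptors. They are the same 3 retinas whose photoreceptor profiles lay closest together. The order of retinas in Kcnv2 was another, with batch 1 at the top.

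Free RNA from rods has to be set beside the low levels. Its part in them was not tested. As a description, the UMIs of Kcnv2 were taken as a share of those of Kcnv2 and Slc24a1 together. In rods, defined further on, Kcnv2 made up 10.8% of 31720 such UMIs (exact binomial 95% interval 10.4% to 11.1%), with 7.45% to 15.03% between retinas. Glia, at 12.2% of 254 UMIs (8.45% to 16.9%), and mesenchymal cells, at 18.3% of 82 (10.6% to 28.4%), had intervals that include the share of rods, so a difference from rods was not detectable in them at this depth.

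Interneurons and RPE lay on opposite sides of the rod share. Interneurons had 18.6% of 608 UMIs (15.6% to 21.9%), above the rods of the same retina in 6 of 6 retinas. Without the 68 cells led by cone markers the share was 17.8% of 544 UMIs (14.7% to 21.3%). RPE had 2 UMIs of Kcnv2 beside 117 of Slc24a1, a share of 1.68% (0.204% to 5.94%). In 4 of the 6 retinas RPE held no UMI of Kcnv2, beside 3 to 29 of Slc24a1, so single retinas add little to the pooled share. The intervals cover counting error only.

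The share of cells with a UMI moved with the depth of the cells. All shares were taken again after cells had been thinned to 500 UMIs, which left out the cells with fewer. This kept 15802 of 41455 rods, 868 of 904 cones, 1999 of 2083 interneurons, 855 of 942 glia and 92 of 116 RPE cells, so the thinned share of rods is that of their deeper cells and can exceed the share as counted. The shares as counted pool the cells of all retinas, whereas the thinned shares are means over retinas. Atp1b2 was found in 23.8% of rods and 88.7% of cones as counted, and in 25.2% and 51.9% after thinning. Slc24a1 was found in 43.0% of rods and 20.6% of cones as counted, and in 48.9% and 6.53% after thinning. Interneurons had a UMI of Slc24a1 in 17.4% of cells as counted, beside the 20.6% of cones, and in 5.47% after thinning, beside 6.53%.

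Atp1b1 was found in 37.9% of RPE cells (exact binomial 95% interval 29.1% to 47.4%) and 14.9% of interneurons as counted, and in 20.8% and 4.64% after thinning, against 0.222% of photoreceptors. In interneurons single retinas had 1.88% to 23.8% as counted and 0.99% to 10.7% after thinning. The pooled 14.9% and the mean of 4.64% thus weigh the retinas differently. Atp1b3 was found in 44.7% of glia, 16.8% after thinning, against 0.434% of photoreceptors. The median depth of a retina was 1404 to 1793 UMIs per cell in glia and 397 to 523 in photoreceptors.

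Rods and cones of the same retina were then compared. Photoreceptors were clustered without the 5 genes and the pathway genes, and 1 cluster, in which 8 of the 10 leading genes were cone markers, was taken as cones. It held 904 cells, and the other 41455 photoreceptors, in 19 clusters, were taken as rods. Rods are thus the remainder of the photoreceptors: 0 of these clusters had a rod marker among its 10 leading genes, and 1 cluster of 10255 cells held a bipolar marker, Prkca, and 1 of 394 cells an RPE marker, Ttr. Globin genes were among the leading genes of 3 of the clusters, 1 of which (22 cells) was led by globins and Alas2 alone, and mitochondrial genes were among those of 2. The median depth of a retina was 1730 to 2575 UMIs per cell in cones and 391 to 501 in rods. Of 10810 genes tested with edgeR, with the retina as a block, 40.2% differed, 20.5% higher in cones and 19.7% lower. Of the 5 genes, 1 was higher in cones, 2 were lower, 1 did not pass the test, and Atp1b1 had too few UMIs to be tested.

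Cones had more Atp1b2 than rods, by 1.17 ± 0.08 on the log2 scale (edgeR, adjusted p = 4.1e-24). Its level in cones was 1367, 1268 and 1512 CPM in wt/wt and 1812, 1442 and 1421 CPM in ko/ko. In rods it was 561.6, 512 and 762 CPM in wt/wt and 691, 576 and 663 CPM in ko/ko. The cone value was the higher in 6 of 6 retinas, and the lowest cone value, 1268 CPM, was above the highest rod value, 762 CPM.

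Cones had less Slc24a1, by 3.29 ± 0.11 on the log2 scale (edgeR, adjusted p = 2.0e-47). The rods held 1721, 1715 and 1178 CPM in wt/wt and 916, 1915 and 1322 CPM in ko/ko. The cones held 207, 150.5 and 114 CPM in wt/wt and 90.3, 276 and 113 CPM in ko/ko, lower in 6 of 6 retinas.

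Kcnv2 was lower in cones by 0.73 ± 0.12 on the log2 scale (edgeR, adjusted p = 8.4e-08). In rods it was 149, 152 and 208 CPM in wt/wt and 154, 154.2 and 220.2 CPM in ko/ko. In cones it was 131, 104 and 130.5 CPM in wt/wt and 84.7, 76.4 and 122 CPM in ko/ko, lower in 6 of 6 retinas. Of the UMIs of Kcnv2 and Slc24a1 together, however, Kcnv2 made up 41.2% in cones (exact binomial 95% interval 36.8% to 45.8%), with 21.7% to 53.3% between retinas, and was above the 10.8% of rods in each. The share of cells with a Kcnv2 UMI was 18.7% in cones and 7.65% in rods as counted, and 5.19% and 8.23% after thinning, so the order turned with depth and the thinned order was that of the CPM.

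Atp1b3 was at 8.53 CPM in rods and 8.50 CPM in cones, with 14 UMIs in all cones, and its log2 difference was -0.21 ± 0.43 (edgeR, adjusted p = 0.733). A two-sided exact sign-flip permutation test over the 6 retinas gave the smallest p it can reach, 0.03125, for Atp1b2, Kcnv2 and Slc24a1 (0.0833 after adjustment over 8 tests). The share of Atp1b2 among the beta UMIs was 98.1% in rods and 99.3% in cones, a difference of 1.17 percentage points that was higher in cones in 5 of 6 retinas (exact sign-flip permutation p = 0.0625, adjusted 0.1). A looser rule took as cones all photoreceptors with at least 5 UMIs of the cone list (9745 cells). Only 904 of them were cones by clustering, so most were cells taken as rods above. Rods were then those with no UMI of the list (7318 cells). Between these groups, both mostly rods by clustering, the difference in Slc24a1 was -0.12 (edgeR, adjusted p = 0.342). With at least 10 UMIs of 6 cone genes, a definition added after the data were seen, 910 cells were cones and the difference was -3.28.

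**Figure D4:**
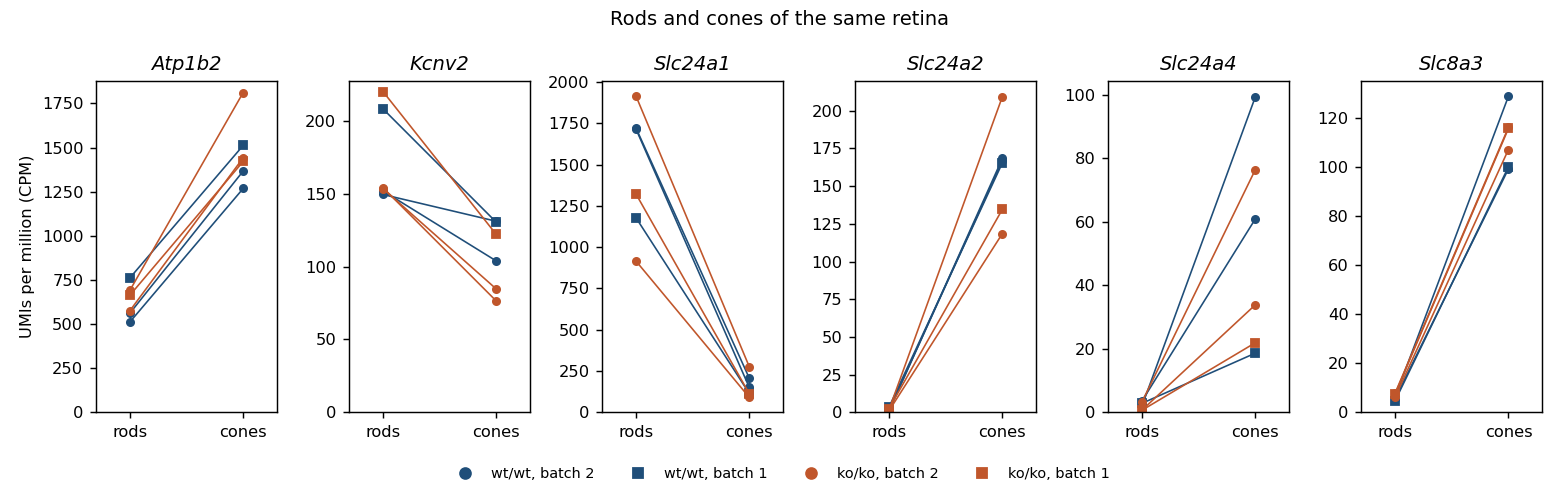
Level of 3 of the 5 genes and of 3 exchanger genes (CPM, vertical axes of different ranges starting at 0) in rods and cones, with a line joining the rods and cones of each retina. Atp1b2, Slc24a2, Slc24a4 and Slc8a3 rise from rods to cones in each retina, and Kcnv2 and Slc24a1 fall in each.

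The other genes of ion transport around these 5 were taken from 2 lists. The first held 12 partners of the pump: the FXYD proteins, small membrane proteins that adjust its activity, the NKAIN proteins that bind beta subunits, and Atp1b4. Between rods and cones 2 of the 12 were tested, and 0 were higher and 0 lower in cones. The median of the 2 was -0.33, and that of all genes tested -0.04.

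The second list held 14 genes: further sodium-calcium exchangers, plasma membrane calcium pumps and voltage-gated potassium channel subunits. Of 5 tested, 3 were higher in cones and 0 lower, where 20.5% of all genes tested were higher and 19.7% lower. Of these 3, Slc24a2 and Slc24a4 had too few UMIs to be tested in rods alone and passed the filter through cones, where they are high, so nothing is read from the count or from their tests. Slc24a2, which encodes the exchanger known from cone outer segments, had 1.89 ± 0.96 CPM in rods and 160.5 ± 31.4 CPM in cones (log2 difference 6.24 ± 0.20 in edgeR). Slc24a4, a related exchanger, had 2.23 ± 1.29 and 51.8 ± 32.4 CPM (4.37 ± 0.31 in edgeR). Slc8a3, an exchanger that moves no potassium, had 6.41 and 111 CPM (4.05 ± 0.18, edgeR, adjusted p = 5.5e-36). The calcium pump Atp2b1 did not pass, with 303 CPM in rods and 313 CPM in cones, nor did Slc24a5, with 234 and 265 CPM.

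Slc24a1 and Slc24a2 were set side by side in both cells. In rods Slc24a1 stood at 1461 ± 383 CPM beside 1.89 CPM of Slc24a2. In cones Slc24a2 and Slc24a1 stood at 160.5 ± 31.4 and 158 ± 70.5 CPM, with Slc24a2 the higher in 4 of 6 retinas, and both means were below the 265 CPM of Slc24a5. The level of Slc24a1 in cones was near the 151 CPM of glia.

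Across the 5 types the listed genes had other places of highest level. Glia led for Fxyd1, known as phospholemman, with 1462 ± 269 CPM, and for Fxyd6 with 934 ± 250.3 CPM, where photoreceptors had 15.2 and 10.1 CPM. Fxyd7, Fxyd3, Fxyd2, the mitochondrial exchanger Slc8b1 and the calcium pump Atp2b4 were also highest in glia, at 10.7 to 124 CPM. Fxyd5 was highest in mesenchymal cells, with 573 ± 298 CPM. In photoreceptors against glia 0 of 3 tested pump partners were higher and 2, Fxyd1 and Fxyd6, were lower, where 37.0% of all genes tested were higher and 32.0% lower. In the fit over all types these partners passed the filter through glia or mesenchymal cells, where they are high, so nothing is read from this count.

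Several genes of the second list had their highest mean among the deposited types in interneurons, in CPM without scaling between types. Atp2b1 stood at 797 CPM, Slc24a5 at 241, Slc24a3 at 153, Atp2b2 at 91.0, Kcnb2 at 84.5, Slc24a2 at 71.8 and Slc24a4 at 47.4, all in CPM. The means of Slc24a2 and Slc24a4 in cones alone, given above, were higher than these. The interneuron type holds the 68 cells led by cone markers, and their part in the values of Slc24a2, Slc24a4 and Slc8a3 was not tested. In photoreceptors against interneurons 0 of 7 tested genes of the second list were higher and 4 were lower, where 32.9% of all genes tested were higher and 33.1% lower. Of the 4, Atp2b2 and Kcnb2 had too few UMIs to be tested in photoreceptors alone and passed the filter through the types where they are high, so nothing is read from this count either. Slc24a5 did not pass, and its log2 difference of 0.23 ± 0.11 (edgeR, adjusted p = 0.0514) ran toward photoreceptors, against the order of the means. Nkain1 and Nkain2 had no UMI, and Atp1b4 and Kcnv1 had 1 each.

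Genes whose level across the 30 sums of 6 retinas and 5 types was most like that of the 5 were named by Pearson's r of log2 CPM, over 6290 genes and as a description, since sums of 1 retina share depth and free RNA. For Atp1b2 they were Atp6v0e2 (0.93), E130218I03Rik (0.89) and Peg3 (0.89). For Atp1b3 they were Cox4i2 (0.97), Crip2 (0.92) and Id3 (0.91), of which Cox4i2 was higher in glia, with 1136 CPM against 145 CPM in mesenchymal cells, and Crip2 (543 against 1321 CPM) and Id3 (433 against 998 CPM) were higher in mesenchymal cells. For Kcnv2 they were Gm11961 (0.98), Snord104 (0.91) and Pcare (0.90), the last a gene of the photoreceptor outer segment with 206 CPM in photoreceptors and at most 31 CPM elsewhere. For Slc24a1 they were Tmem237 (0.84), Sgk1 (0.83) and Ssu72 (0.82), each high in photoreceptors and next in RPE. For Atp1b1 they were Ndufa13, Calm3 and Usmg5, each at 0.84 and highest in RPE.

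Loss of Dram2 was the contrast of the study, and none of the 5 genes passed its test in the classes where it had enough UMIs to be tested. Slc24a1 was tested in all 7 classes and Atp1b2 in all but RPE. Kcnv2 was tested in photoreceptors, rods, cones and interneurons, Atp1b3 in photoreceptors, rods and glia, and Atp1b1 in interneurons and RPE. In photoreceptors 0.0% of 13053 genes tested passed with edgeR, in interneurons 0.0% of 7698, in glia 0.0% of 4130, in mesenchymal cells 0.0% of 1717, in RPE 0.0% of 308, in rods 0.0% of 12520 and in cones 0.0% of 5197. The numbers of genes with an unadjusted p under 0.05 were, in the same order, 109, 86, 51, 150, 11, 86 and 57. DESeq2 called 1 gene in RPE and 0 in each other class, and limma-voom called 0 throughout. With the batch as a covariate edgeR called 21 genes in mesenchymal cells and 3 in RPE, and with the replicate number as a block 26 and 4, none of them 1 of the 5. The submitters' texts differ on the samples: there are 3 labelled retinas of each genotype, but the protocol counts 1 sample of each, and the design text names the tissue as choroid. Nothing says that the retinas of a genotype came from separate mice, so n = 3 may count technical replicates and p values measure only the spread between these 6 samples.

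In photoreceptors the log2 changes, ko/ko minus wt/wt, were 0.07 ± 0.22 for Atp1b2, 0.18 ± 0.38 for Atp1b3, 0.08 ± 0.23 for Kcnv2 and -0.09 ± 0.31 for Slc24a1 (edgeR, adjusted p = 0.998 for each). In rods alone they were 0.09 ± 0.22, 0.02 ± 0.39, 0.07 ± 0.24 and -0.13 ± 0.31. In cones they were 0.18 ± 0.22 for Atp1b2, -0.34 ± 0.29 for Kcnv2 and 0.09 ± 0.37 for Slc24a1. The genotypes overlapped in each of these genes and classes.

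The beta subunits did not pass in the other classes where they were tested. In interneurons the change was 0.28 ± 0.76 for Atp1b1 and 0.21 ± 0.21 for Atp1b2, and in glia -0.15 ± 0.23 for Atp1b2 and -0.26 ± 0.25 for Atp1b3. In RPE it was -0.39 ± 0.50 for Atp1b1 and -0.68 ± 0.60 for Slc24a1, and in mesenchymal cells 0.11 ± 0.36 for Atp1b2 and 0.40 ± 0.40 for Slc24a1 (edgeR, adjusted p = 0.867 for the last, the lowest of all). The SE of Atp1b1 in interneurons was the widest, beside a range from 28.5 to 426 CPM.

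The changes were taken again within each batch, as differences of mean log2(CPM + 1). For Slc24a1 in rods the change was 0.17 in batch 1, with 1 retina per genotype, and -0.38 in batch 2, with 2 per genotype. Without ko/ko replicate 1 it was 0.12 in edgeR. For Atp1b2 in photoreceptors it was -0.25 in batch 1 and 0.22 in batch 2, and for Kcnv2 in rods 0.08 and 0.03. For Atp1b1 in interneurons it was 0.21 and 0.66, and without ko/ko replicate 3 it was -0.98 in edgeR. The direction for Slc24a1 and Atp1b2 thus differed between batches.

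The shares of beta subunits were compared between the genotypes with two-sided exact permutation tests, which cannot go below p = 0.1 with 3 against 3. That value was reached in 3 of 21 tests and was 0.7 after adjustment. The wt/wt and ko/ko shares of Atp1b2 in mesenchymal cells were 47.5 ± 6.57% and 57.1 ± 6.44%. In RPE Atp1b1 made up 56.3 ± 2.24% and 65.6 ± 8.17%. In cones Atp1b3 made up 0.198 ± 0.172% and 0.895 ± 0.423%, from 14 UMIs.

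Whether the genotype change differed between rods and cones was tested as an interaction in edgeR, where 0.0% of 10810 genes passed and 393 had an unadjusted p under 0.05. Atp1b3 had a difference of 2.17 ± 0.95 (unadjusted p = 0.0251, adjusted p = 0.998), with cone values of 3.97, 0 and 4.66 CPM in wt/wt and 16.9, 6.65 and 18.8 CPM in ko/ko, that is 1, 0 and 2 against 3, 2 and 6 UMIs. Kcnv2 had -0.41 ± 0.24, Slc24a1 0.15 ± 0.23 and Atp1b2 0.08 ± 0.16 (edgeR, adjusted p = 0.998). Of the listed pathway genes few could be tested between the genotypes. Of the 12 pump partners 3 were tested in photoreceptors, rods and glia, 1 in mesenchymal cells, 2 in the interaction and 0 elsewhere, and of the 14 genes of the second list 9 were tested in interneurons, 6 in photoreceptors, 5 in cones and in the interaction, 4 in rods and in glia, 1 in mesenchymal cells and 0 in RPE. None of those tested passed. The only pump partner tested in mesenchymal cells, Fxyd5, had a log2 change of 0.94 ± 0.38 (edgeR, unadjusted p = 0.0301, adjusted p = 0.493).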

How the data were processed

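Gene counts per cell and a table with the sample, batch and cell type of each cell were deposited for the whole series. Per the labels and the methods of the study, the authors made 10x Genomics 3′ v2 libraries and deposited raw UMI counts of exonic reads, aligned to mm10 (GRCm38) with Cell Ranger (3.1.0 in the submitters' processing notes), without normalization. The authors also deposited the cell types, which are names they gave to Louvain clusters of log-normalized counts that Seurat had integrated across batches by CCA. No column of the table was left unused (0 unmapped). Of the gene identifiers, 52489 were named with GENCODE M21. Cells carry running numbers in place of barcodes, so barcodes shared between libraries could not be counted, and doublets were not removed. Each retina was counted as 1 sample: no 2 agreed within counting noise (chi-square per degree of freedom at least 1.18), which does not show that they came from separate mice.

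UMIs were summed per retina and class and tested with edgeR (glmQLFit, glmQLFTest, TMM, filterByExpr, Benjamini-Hochberg, adjusted p under 0.05), with genotype alone or with the retina as a block. Clusters came from scanpy's leiden method at resolution 1, on 15 neighbours in 30 principal components of 2000 variable genes, with the 10 genes of largest fold over a pseudocount of 50 CPM as leading genes and at least 3 markers needed for a name. CPM were not scaled by TMM factors. A count of 0 allows 3 UMIs, and intervals (95%) cover counting error only. Replicate numbers were not used as pairs in the main fits. Deviations of replicate 1 had r = -0.08 to 0.10 between genotypes, of replicate 2 r = 0.23 to 0.55 and of replicate 3, which shares batch 1, r = 0.39 to 0.58. These values cannot decide whether the samples were paired. Alternatives were limma-voom, which the study used, DESeq2, RLE factors, no filter, a fold change above 2, the batch or the replicate number as a term, stricter cells (at least 500 UMIs, at most 10% mitochondrial), removal of cells above 3 times the median UMIs of their class, other definitions of cones, and each retina left out. The genotype fit of each class (edgeR, limma-voom and DESeq2) and the edgeR fit of cones minus rods were tested on simulated data first, with a fixed dispersion. The fits between types, the interaction and the other alternatives were not simulated.

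The 5 genes, the lists and the tests were chosen with earlier results of these data known. Named genes are the 5, the 3 most like each of them by r, the 2 pathway lists and the marker genes. The pump pair of each type is given for the beta subunit, and some genes of the same set and lists are not reported here. Start windows came from RefSeq, where 3 of the 5 genes were matched. Versions were R 4.3.3, edgeR 4.0.16, limma 3.58.1, DESeq2 1.42.0, scanpy 1.11.5, scikit-learn 1.9.0, scipy 1.17.1, matplotlib 3.10.9, pandas 2.3.3, numpy 2.4.6 and Python 3.11.15.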

Additional observations from a re-analysis of the deposited data

Results flagged for a closer look

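The 629 cells without a deposited cell type entered no comparison, and 3 of the 5 genes were counted in them above the 3 UMIs that a count of 0 allows. They held 379054 UMIs in the 6 retinas together, with a median of 506 per cell. Atp1b2 stood at 628 CPM (238 UMIs), Kcnv2 at 166 CPM (63 UMIs) and Slc24a1 at 1377 CPM (522 UMIs). Slc24a1 was 2092, 1895 and 1218 CPM in wt/wt replicates 1 to 3 and 862, 1837 and 1183 CPM in ko/ko replicates 1 to 3, so the 3 retinas highest in rods were also the highest here. Atp1b1 and Atp1b3 had 3 UMIs each.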

How the results depend on the processing

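Few results of the 5 genes changed their call. Slc24a1 between cones and rods was -0.12 and no longer passed when cones were all photoreceptors with at least 5 cone-list UMIs and rods were only those with none, which changed both groups. Of the 9745 cones of that rule only 904 were cones by clustering. Between types, the following log2 differences changed. For Atp1b1, glia minus mesenchymal cells was -1.88 and passed in wt/wt retinas only, and photoreceptors minus glia passed at -1.19 with RLE factors, -2.43 with limma-voom and -1.16 with stricter cells. For Atp1b2, photoreceptors minus interneurons turned to 0.035 in wt/wt retinas only, 0.045 with RLE factors, 0.042 with no filter and 0.019 with limma-voom, and with no filter photoreceptors minus glia passed at 0.44 and mesenchymal cells minus RPE no longer passed at -0.65. Interneurons minus RPE for Atp1b3 turned to 0.45 with no filter and to 0.21 without cells over 3 times the median UMIs. For Kcnv2, interneurons minus mesenchymal cells turned to 0.019 with no filter and glia minus RPE to -0.28 with limma-voom. For Slc24a1, interneurons minus mesenchymal cells turned to 0.14 in wt/wt retinas only and with no filter. The cause of these changes was not tested.

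Between the genotypes none of the 5 genes was called under any alternative in which it was tested. Small changes turned sign for Atp1b2 in mesenchymal cells with stricter cells (-0.035) and for Slc24a1 in cones with limma-voom (-0.0061). The number of genes called, 0 in each class, became 1 in photoreceptors, 1 in interneurons, 1 in rods, 28 in mesenchymal cells and 3 in RPE with no filter, 21 in mesenchymal cells and 3 in RPE with the batch as a covariate, and 1 in RPE with DESeq2. With the replicate number as a block it became 26 in mesenchymal cells and 4 in RPE, stayed 0 in the other classes, and the change of Atp1b3 in rods turned to -0.00051. In every class 2 of the 3 replicate numbers had their own number as the best match. Replicate 3 also shares a batch, so these matches cannot decide whether the samples were paired.

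Leaving out each retina in turn gave 0 to 7 called genes in mesenchymal cells (7 without ko/ko replicate 2), 0 to 2 in RPE (2 without wt/wt replicate 3) and 0 to 3 in the interaction (3 without wt/wt replicate 3). Genotype changes that turned sign in one or more of these fits ranged in photoreceptors from -0.032 to 0.27 for Atp1b2, -0.20 to 0.52 for Atp1b3, -0.14 to 0.24 for Kcnv2 and -0.39 to 0.15 for Slc24a1. In rods they ranged from -0.019 to 0.29 for Atp1b2, -0.37 to 0.37 for Atp1b3, -0.14 to 0.26 for Kcnv2 and -0.43 to 0.12 for Slc24a1. Elsewhere they ranged from -0.98 to 1.74 for Atp1b1 in interneurons, -0.76 to 0.15 for Atp1b1 in RPE, -0.11 to 0.30 for Atp1b2 in mesenchymal cells, and for Slc24a1 from -0.58 to 0.34 in cones, -0.22 to 0.21 in glia and -0.22 to 0.099 in interneurons. In the interaction Atp1b2 ranged from -0.042 to 0.17 and Slc24a1 from -0.16 to 0.35, and between cones and rods Atp1b3 from -0.61 to 0.084. Between types the ranges were -1.52 to 0.75 for Atp1b1 in glia minus mesenchymal cells, -2.07 to -0.73 in photoreceptors minus glia (called without wt/wt replicate 3), -0.061 to 0.017 for Atp1b2 in photoreceptors minus interneurons, -1.06 to -0.70 in mesenchymal cells minus RPE (not called without wt/wt replicate 3), and -0.62 to 1.3 for Atp1b3 in interneurons minus RPE.

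Thinning to 500 UMIs moved the share of cells with a UMI to 20.8% for Atp1b1 in RPE, 51.9% for Atp1b2 in cones, 36.01% for Atp1b2 in interneurons, 16.8% for Atp1b3 in glia, 5.19% for Kcnv2 in cones and 6.53% for Slc24a1 in cones. The shares of beta subunits moved by less than their spread under all 189 alternative values. Depth limits the RPE values, since 17073 to 35968 UMIs per retina left 2 to 117 UMIs for each of the 5 genes over all 6 retinas, and 20 cells or fewer made up the amacrine-list set in each batch 2 retina.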
